A study of Mus musculus with 6 samples.

Results

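Genomic imprinting leaves a gene active mainly on the copy inherited from 1 parent, and 10 such genes were followed in the cerebellum of mice aged 6 days: Meg3, Dlk1, H19, Peg3, Ndn, Snrpn, Plagl1, Nnat, Mest and Grb10. They were selected by symbol from the authors' table of read counts. Of the 10, 9 had an entry among the 40568 entries of the table and 8 had enough reads to be tested among 15457 genes. Snrpn is not analysed here, and Dlk1 was listed at 0. The 3 wild type and 3 SnoN cKO libraries, all from C57BL/6 animals, were made from total RNA of the cerebellum. SnoN cKO stands for a conditional knockout of SnoN, the transcriptional regulator of the Ski family encoded by Skil. The series concerns SnoN and the proliferation of granule neuron precursors. The sources used here give neither the allele nor the Cre driver of the knockout. They do not state in words that each library is 1 animal, so p-values measure only the spread between these libraries, which may be technical.

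Imprinted genes lie in clusters in which a region methylated on the copy from 1 parent sets which neighbours are active. Many act on growth and on the endocrine and nervous systems, and several, such as Nnat, Ndn, Peg3 and the long noncoding RNA Meg3, are known for high expression in neurons. Igf2 and its neighbour H19 are known in brain mainly from the choroid plexus, the meninges and vessels. Read counts per gene do not separate the maternal from the paternal copy, so every value below is the sum over both.

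The libraries held 12605870 to 17757711 counts on genes. Levels are given as CPM, for which gene counts were divided by library totals adjusted with the trimmed mean of M values and put on a common scale. Cerebellum markers (En2, Zic1, Zic2, Pax6, Atoh1, Barhl1, Neurod1, Pcp2, Calb1 and Car8) had counts in every library and summed to between 3855 and 4504 CPM. Skil was at 89.5, 87.5 and 88.9 CPM in wild type 1, 2 and 3 and at 76, 74.7 and 77.5 CPM in SnoN cKO 1, 2 and 3. It was lower in every SnoN cKO library, with a log2 fold change of -0.22 (SE 0.04) at an unadjusted p of 0.000379 and an adjusted p of 0.637 over all genes by edgeR's quasi-likelihood test. Counts of Xist and of 4 Y-linked genes went against the labelled sex in 2 libraries. SnoN cKO 1, labelled female, had 35 counts of Xist and 1146 of Ddx3y, and SnoN cKO 2, labelled male, had 37467 and 0. Both carry the same genotype label, so the comparison of genotypes is the same if they were exchanged.

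SnoN cKO 2 also stood apart in its markers of neighbouring tissue. Its 12 choroid plexus markers summed to 183 CPM against 2168 to 4020 CPM in the other 5 libraries, with Ttr at 17.3 CPM. Its 18 brainstem markers summed to 39.5 CPM, and 8 of the 18 were at 0 there. These were Hoxa4, Hoxa5, Hoxb3, Hoxb4, Hoxd3, Hoxd4, Chat and Tph2. Some were near 0 elsewhere too: Hoxd4 had 1 to 3 counts, Tph2 2 to 5 and Chat 0 to 6 in the other libraries. Hoxb3 had 3 to 35 counts there. SnoN cKO 1 had 2 of the 18 markers at 0. The brainstem sums were 64.6, 79.8 and 56.7 CPM in wild type 1, 2 and 3 and 47 and 62.5 CPM in SnoN cKO 1 and 3. SnoN cKO 3, the deepest library, stood apart in another measure: the chi-square per degree of freedom of its counts against each other library was 28.5 to 51.7, against 2.67 to 18.1 among the other 5. In whole tissue, fewer cells of a type and less RNA per cell cannot be told apart.

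The upstream sequences of 4 of the genes are shown because Meg3 and Nnat had the same order of the 6 libraries, described below, and because each shares a short motif with another of the 8 tested genes, Peg3 and Ndn, whose libraries had another order between the same highest and lowest library. They are the 250 bases before the start of transcription in RefSeq on build GRCm38.p6, written 5′ to 3′ on the strand of the gene. This is another build than the mm9 of the counts. Capitals mark the cyclic AMP response element TGACGTCA, bound by CREB and related factors, in Meg3 (chr12:109540746-109540995, plus strand) and Peg3 (chr7:6730420-6730669, minus strand). In Nnat (chr2:157559828-157560077, plus strand) and Ndn (chr7:62348027-62348276, plus strand) they mark GCATGCGC, the core of the sites of nuclear respiratory factor 1 (NRF1). In Nnat the NRF1 core lies on both strands, in overlapping positions, so the capitals run over 10 bases.
Meg3: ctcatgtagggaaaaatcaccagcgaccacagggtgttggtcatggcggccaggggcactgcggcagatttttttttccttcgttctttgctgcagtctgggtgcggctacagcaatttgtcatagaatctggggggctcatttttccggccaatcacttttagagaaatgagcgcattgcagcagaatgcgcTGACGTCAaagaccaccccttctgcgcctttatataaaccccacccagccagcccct
Peg3: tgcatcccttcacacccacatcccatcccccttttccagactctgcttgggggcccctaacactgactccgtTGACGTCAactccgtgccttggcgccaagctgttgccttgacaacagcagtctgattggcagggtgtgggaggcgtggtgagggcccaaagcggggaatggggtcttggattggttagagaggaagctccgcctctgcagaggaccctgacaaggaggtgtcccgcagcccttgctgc
Nnat: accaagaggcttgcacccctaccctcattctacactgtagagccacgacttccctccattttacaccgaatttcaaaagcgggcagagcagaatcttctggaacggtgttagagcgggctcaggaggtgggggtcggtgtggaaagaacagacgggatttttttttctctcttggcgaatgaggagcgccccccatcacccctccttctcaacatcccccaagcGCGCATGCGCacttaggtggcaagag
Ndn: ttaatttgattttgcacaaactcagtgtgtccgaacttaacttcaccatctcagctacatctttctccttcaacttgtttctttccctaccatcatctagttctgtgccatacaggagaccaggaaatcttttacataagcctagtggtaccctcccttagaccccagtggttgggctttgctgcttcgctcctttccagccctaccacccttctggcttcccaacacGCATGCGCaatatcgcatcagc

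The RefSeq table held 16 windows for 9 of the 10 genes, and H19 was the other gene. Each motif was searched on both strands, and TGACGTCA reads the same on both. It was found in 2 of the 16 windows and in 508 of 32851 windows of all genes (1.55%). The core GCATGCGC was likewise found in 2 of the 16 windows and in 741 of all windows (2.26%). The 4 genes were shown for sharing a motif, so these shares carry no test. The 16 windows are not independent either, since some genes had several, and windows 2 and 3 of Mest overlapped almost fully. The element lay 57 bases before the first listed start of Meg3 and 178 bases before that of Peg3, and the core 22 bases before that of Ndn. Window 2 of Meg3, before a later start, held neither motif and 0 CG pairs. The 4 sequences held 10 CG pairs in Meg3, 8 in Peg3, 12 in Nnat and 5 in Ndn, against a median of 6 over all windows. These matches are a description of letters and carry no measurement of binding.

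Levels per length differed widely among the 8 genes. CPM was divided by the length in kb of all exons of the gene in GENCODE M21. Nnat, which encodes a small membrane proteolipid of neurons, ranked first of all imprinted genes tested, with a median of 322 CPM per kb and a range of 298 to 356 over the 6 libraries. Among the 8 genes Ndn, encoding the MAGE family protein necdin, followed at a median of 58.1 CPM per kb (range 55.6 to 62), at rank 5 of all imprinted genes tested. H19 came next of the 8 at 38.8 CPM per kb (rank 7 of all). Its range of 19.3 to 43.5 enclosed that of Peg3, a zinc finger gene at 30.5 CPM per kb (range 28.9 to 32.4). The hydrolase gene Mest was at 16.3 CPM per kb (range 13.8 to 17.4). It was followed by the zinc finger transcription factor gene Plagl1, also called Zac1, at 13.5 CPM per kb (range 11.9 to 13.8). The adaptor gene Grb10 was at 12.1 CPM per kb (range 11.2 to 14.2), and the ranges of Mest, Plagl1 and Grb10 met or overlapped. Meg3 was the lowest of the 8, at 1.3 CPM per kb (range 0.943 to 1.64), over a summed exon length of 18089 bases that includes many alternative exons. Exon sharing limits some levels, since the strand of reads is not recorded by the library kit named in the labels: 23.1% of the exon bases of Mest overlap Copg2, and 9.15% of H19 and 8.29% of Meg3 overlap other genes.

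**Figure D1:**
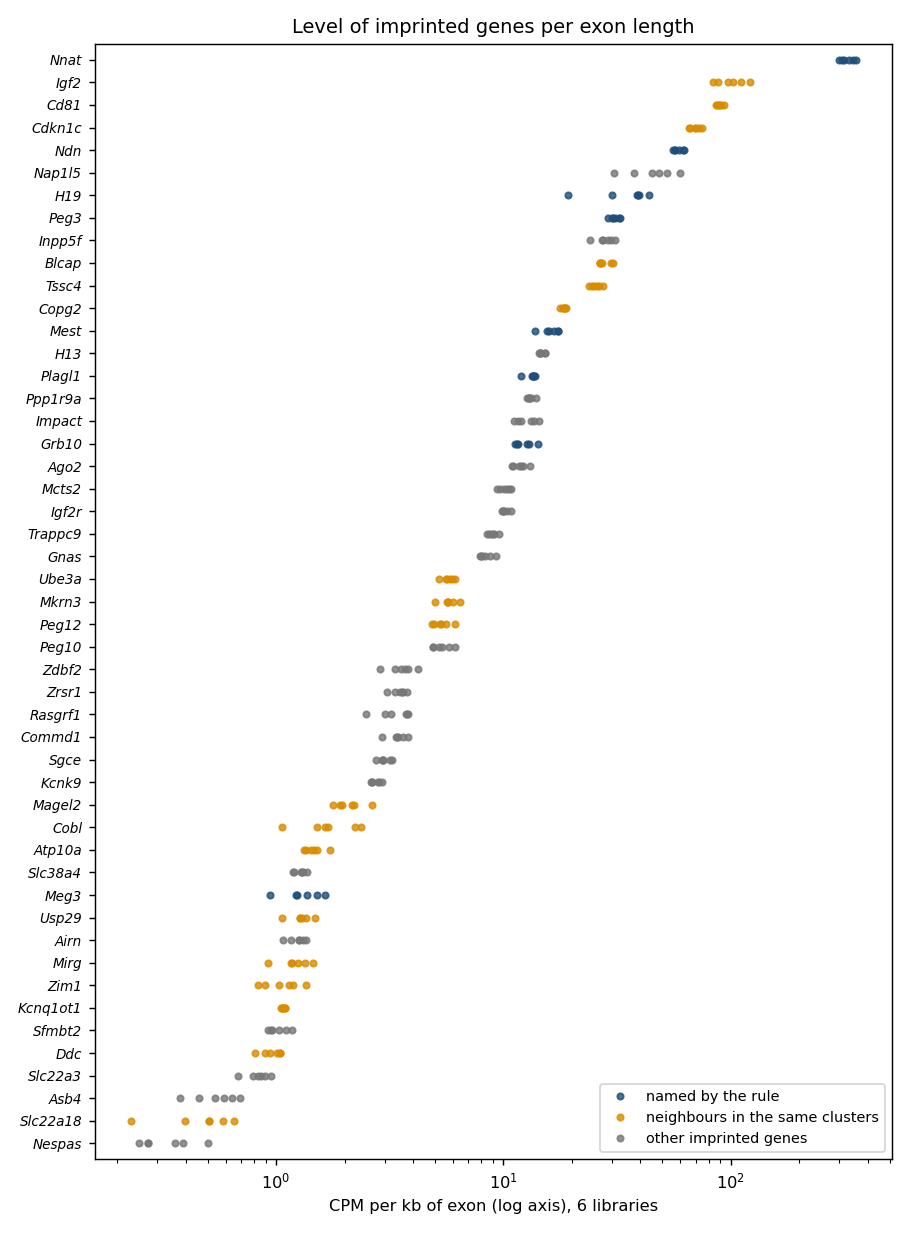
Levels of imprinted genes per length, in CPM per kb of exon on a log axis, with 1 point for each of the 6 libraries and colours for the genes named by symbol, their neighbours in the same clusters and other imprinted genes. Nnat stands alone at 298 to 356 CPM per kb, and Meg3 lies at 0.943 to 1.64 CPM per kb.

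None of the 8 tested genes passed an adjusted p of 0.05 between genotypes by edgeR's quasi-likelihood test, and neither did any of the 15457 genes (0%). At an unadjusted p under 0.05 there was 1 of the 8, Peg3, against 1187 of all genes (7.68%). DESeq2 and limma-voom also called 0 of the 8 after adjustment. Unadjusted p by DESeq2 was 0.0292 for Meg3, 0.0281 for Peg3 and 0.0332 for Nnat, and above 0.05 for the rest of the 8. It was under 0.05 for 668 of all genes. By limma-voom only Peg3 of the 8 had an unadjusted p under 0.05, at 0.0299. The log2 fold change of SnoN cKO over wild type was negative for 7 of the 8 (87.5%), with a median of -0.12, against 51% and a median of 0.00 over all genes. Libraries of the genotypes did not overlap for 1 of the 8 (12.5%), against 13.7% of all genes. By edgeR the 8 genes stood near the background in the share of calls and of separated genotypes, and above it in the share of negative values.

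**Figure D2:**
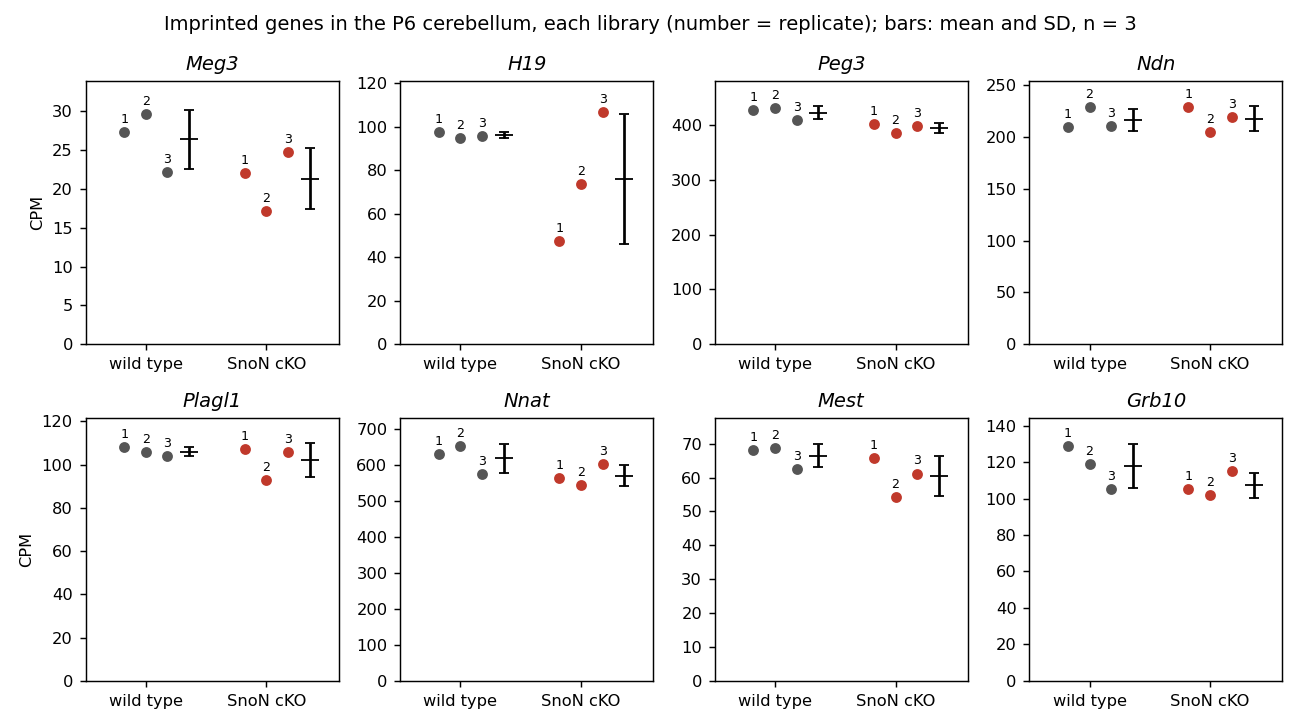
Level in CPM of the 8 tested genes in each of the 6 libraries, numbered by replicate, with the mean and SD of 3 libraries per genotype beside them; each axis starts at 0. Of the 8, only Peg3 has every SnoN cKO library below every wild type library, and H19 has a spread within SnoN cKO of 47.5 to 107 CPM.

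In the Dlk1-Meg3 cluster on chromosome 12, the maternally expressed noncoding RNA Meg3 was at 27.3, 29.6 and 22.2 CPM in wild type 1, 2 and 3 and at 22.1, 17.1 and 24.8 CPM in SnoN cKO 1, 2 and 3. The genotypes overlapped, with SnoN cKO 2 lowest and SnoN cKO 3 above wild type 3. The means were 26.4 ± 3.79 CPM (SD, n = 3) and 21.3 ± 3.94 CPM (SD, n = 3). Its log2 fold change was -0.31 (SE 0.14) at an unadjusted p of 0.0554 and an adjusted p of 0.654 by edgeR. Without SnoN cKO 2 it was -0.17, and without SnoN cKO 3 it was -0.43, with adjusted p of 0.939 and 0.465 by edgeR.

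Mirg, a noncoding RNA of the same cluster that hosts microRNAs, was at 9.78, 10.6 and 8.5 CPM in wild type against 8.46, 6.7 and 9.15 CPM in SnoN cKO 1, 2 and 3. Its libraries fell in the same order as those of Meg3, and its log2 fold change was -0.25 (SE 0.14). The ratio of Meg3 to Mirg counts stayed between 2.55 and 2.81 in all 6 libraries. The paternally expressed Dlk1, which encodes a membrane protein related to Notch ligands, had 1 entry with 0 counts in every library. The retrotransposon-derived Rtl1 and the noncoding RNA Rian of the cluster were likewise listed at 0. If reads of these entries were counted, 0 counts allow a level of up to 0.176 CPM in the largest library and 0.235 CPM in the smallest. The deiodinase gene Dio3 had 2 to 7 counts per library and was not tested.

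In the Igf2-H19 cluster on chromosome 7, the maternally expressed noncoding RNA H19 was at 97.5, 94.7 and 95.9 CPM in wild type 1, 2 and 3. In SnoN cKO 1, 2 and 3 it was at 47.5, 73.8 and 107 CPM. The wild type libraries lay close together, whereas the SnoN cKO libraries spanned from the lowest to the highest value of the 6. The means were 96.1 ± 1.39 CPM (SD, n = 3) and 76.1 ± 29.8 CPM (SD, n = 3), and the log2 fold change was -0.33 (SE 0.21) at an adjusted p of 0.697 by edgeR. It was -0.65 without SnoN cKO 3 (unadjusted p of 0.00113, adjusted p of 0.348 by edgeR) and -0.09 without SnoN cKO 1. With SnoN cKO 1 and 2 both left out it was 0.15, a value that sets SnoN cKO 3 alone against wild type. Its log2 CPM spanned 1.17 over the libraries, the only span above 1 among the 8 genes, whose median span was 0.30 against 0.27 over all genes.

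The 3 genes whose centred log2 CPM lay nearest to H19 over the 6 libraries, among 14844 genes compared, were Thbd, Smoc2 and Bnc2. Their root mean square differences from H19 were 0.05, 0.09 and 0.10 on the log2 scale. Thbd, the thrombomodulin gene of endothelial cells, was at 32.8, 29.5 and 29.6 CPM in wild type 1, 2 and 3 and at 15.9, 23.7 and 34.3 CPM in SnoN cKO 1, 2 and 3. Like H19, it was lowest in SnoN cKO 1 and highest in SnoN cKO 3. Smoc2 encodes a matrix protein and was at 2.74 to 5.81 CPM, and Bnc2, a zinc finger gene expressed in fibroblasts, at 1.57 to 4.34 CPM. The 14 meningeal fibroblast markers were also lowest in SnoN cKO 1, where they summed to 965 CPM against 1063 to 1288 CPM in the other 5 libraries. The 8 endothelial markers summed to 479 to 529 CPM and were not lowest there, at 496 CPM. The part of these cells in the H19 values was not tested.

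Igf2, the growth factor gene beside H19, is usually expressed from the paternal copy, and its active copy in these libraries was not measured. It was at 696, 583 and 558 CPM in wild type 1, 2 and 3 and at 501, 480 and 635 CPM in SnoN cKO 1, 2 and 3. The genotypes overlapped through SnoN cKO 3, and the log2 fold change was -0.18 (SE 0.11). Choroid plexus markers summed to 3854, 3905 and 2168 CPM in wild type 1, 2 and 3. In SnoN cKO 1, 2 and 3 they summed to 4020, 183 and 3767 CPM. Igf2 was lowest in SnoN cKO 2 and next lowest in SnoN cKO 1, which had the lowest sum of meningeal fibroblast markers, 965 CPM. The part of these tissues in the Igf2 values was not tested. The ratio of H19 to Igf2 counts was 0.095 in SnoN cKO 1 and 0.14 to 0.172 in the other libraries. In GENCODE M21, 64.5% of the exon bases of Igf2 are shared with an antisense gene and a gene model on the same strand, so its level is uncertain.

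The neighbouring domain of Cdkn1c, the gene of the cell cycle inhibitor p57, varied little. Cdkn1c was at 134 to 152 CPM over all libraries with a log2 fold change of 0.04 (SE 0.06). Its level is uncertain without strand, since 30.7% of its exon bases overlap a gene on the other strand. Kcnq1ot1, the antisense noncoding RNA of the domain, was at 98 to 102 CPM (log2 fold change -0.03, SE 0.04), and the tetraspanin gene Cd81 at 248 to 269 CPM (log2 fold change -0.02, SE 0.04). Tssc4 was higher in each SnoN cKO library, at 47.8, 50.6 and 48.4 CPM against 46.2, 45.2 and 44 CPM in wild type. Its log2 fold change was 0.12 (SE 0.05), with an unadjusted p of 0.0467 and an adjusted p of 0.641 by edgeR. The transporter gene Slc22a18 was near 1 CPM at 0.391 to 1.11 CPM. Ins2 with 0 to 8 counts per library, Ascl2 with 3 to 10 and Phlda2 with 1 to 3 were not tested.

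Peg3, the paternally expressed zinc finger gene of its own cluster on chromosome 7, was at 427, 432 and 410 CPM in wild type 1, 2 and 3 and at 402, 385 and 398 CPM in SnoN cKO 1, 2 and 3. Every SnoN cKO library lay below every wild type library, by a small margin. The means were 423 ± 11.8 CPM (SD, n = 3) and 395 ± 8.76 CPM (SD, n = 3). The log2 fold change was -0.10 (SE 0.04) at an unadjusted p of 0.0453 and an adjusted p of 0.64 by edgeR. It lay between -0.12 and -0.08 under all 16 alternatives, the narrowest range of the 8 genes, and its adjusted p was never under 0.549. The paternally expressed Usp29, of the ubiquitin protease family, was at 23 to 27 CPM in wild type and 19.2 to 24.4 CPM in SnoN cKO (log2 fold change -0.13, SE 0.10). The maternally expressed zinc finger gene Zim1 was at 8.34 to 10.9 CPM and 6.7 to 9.24 CPM (log2 fold change -0.33, SE 0.15, unadjusted p of 0.056 and adjusted p of 0.654 by edgeR). Both overlapped between genotypes.

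Ndn, in the Snrpn-Ndn cluster on another part of chromosome 7, had the value closest to 0 of the 8 genes. It was at 210, 229 and 211 CPM in wild type 1, 2 and 3 and at 229, 205 and 219 CPM in SnoN cKO 1, 2 and 3. The genotypes overlapped fully, with means of 217 ± 10.6 CPM (SD, n = 3) and 218 ± 11.7 CPM (SD, n = 3) and a log2 fold change of 0.01 (SE 0.05). Its sign turned under 4 of the 16 alternatives, and all of its values lay between -0.03 and 0.05.

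Its paternally expressed neighbours went in both directions. The MAGE family gene Magel2 was at 10.2, 12.2 and 9.98 CPM in wild type against 8.22, 9 and 8.86 CPM in SnoN cKO, without overlap. Its log2 fold change was -0.31 (SE 0.12) at an unadjusted p of 0.0232 and an adjusted p of 0.637 by edgeR. The makorin gene Mkrn3 was at 14.6 to 16.4 CPM in wild type and 12.7 to 14.5 CPM in SnoN cKO, also without overlap (log2 fold change -0.16, SE 0.10). Peg12, of the Frat family of Wnt pathway proteins, lay the other way, at 12.8, 13.9 and 13.1 CPM in wild type and 14.8, 16.1 and 14.1 CPM in SnoN cKO. Its log2 fold change was 0.17 (SE 0.10), with an unadjusted p of 0.0994 and an adjusted p of 0.663 by edgeR. The maternally expressed ubiquitin ligase gene Ube3a was at 117 to 127 CPM in wild type and 107 to 122 CPM in SnoN cKO. Without strand its level is uncertain, since 27.3% of its exon bases overlap genes on the other strand, Snhg14 among them. The lipid flippase gene Atp10a was at 7.44 to 9.62 CPM and 7.58 to 8.22 CPM.

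Nnat, which lies within an intron of Blcap on chromosome 2 and is paternally expressed, was at 631, 652 and 574 CPM in wild type 1, 2 and 3. In SnoN cKO 1, 2 and 3 it was at 565, 544 and 603 CPM. The genotypes overlapped through wild type 3 and SnoN cKO 3. The means were 619 ± 40 CPM (SD, n = 3) and 571 ± 29.8 CPM (SD, n = 3), and the log2 fold change was -0.12 (SE 0.06) at an unadjusted p of 0.075 and an adjusted p of 0.654 by edgeR. It was -0.08 without SnoN cKO 2 and -0.07 without wild type 2. Blcap was at 90.3, 92.1 and 80.9 CPM and at 80.7, 82.6 and 81.2 CPM (log2 fold change -0.11, SE 0.05), and the ratio of Nnat to Blcap counts was 6.59 to 7.42.

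Mest, paternally expressed on chromosome 6, was at 68.2, 68.6 and 62.6 CPM in wild type 1, 2 and 3 and at 65.8, 54.3 and 61.2 CPM in SnoN cKO 1, 2 and 3. The genotypes overlapped through wild type 3 and SnoN cKO 1, with SnoN cKO 2 lowest, and the log2 fold change was -0.14 (SE 0.07) at an adjusted p of 0.654 by edgeR. It was -0.07 without SnoN cKO 2 and -0.20 without SnoN cKO 1. Its neighbour Copg2, a coat protein gene, was at 91.1 to 96.6 CPM over all libraries (log2 fold change -0.01, SE 0.04), and Klf14 with 1 to 4 counts was not tested. Plagl1, paternally expressed on chromosome 10, was at 108, 106 and 104 CPM in wild type against 107, 93.1 and 106 CPM in SnoN cKO. SnoN cKO 2 alone lay below the others, and the log2 fold change of -0.06 (SE 0.06) was 0.00 without it.

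Grb10, an adaptor of the insulin and insulin-like growth factor receptors, is transcribed from the paternal copy in neurons and from the maternal copy in most other tissues. It was at 129, 119 and 105 CPM in wild type 1, 2 and 3 and at 105, 102 and 115 CPM in SnoN cKO 1, 2 and 3. The genotypes overlapped, and the log2 fold change was -0.13 (SE 0.08) at an adjusted p of 0.684 by edgeR. It was -0.05 without wild type 1 and -0.20 without wild type 3. Of its neighbours on chromosome 11, the actin nucleator gene Cobl had the smallest p of all 49 imprinted genes tested. Cobl was at 18.1, 19.3 and 13.9 CPM in wild type against 13.3, 8.59 and 12.3 CPM in SnoN cKO, without overlap. The log2 fold change of Cobl was -0.59 (SE 0.17) at an unadjusted p of 0.00661 and an adjusted p of 0.637 by edgeR. Ddc, the dopa decarboxylase gene, was at 3.6 to 4.52 CPM and 3.99 to 4.63 CPM (log2 fold change 0.11, SE 0.16).

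Over all 49 imprinted genes tested, of 64 listed, edgeR called 0, and 7 were lower and 1 higher in SnoN cKO at an unadjusted p under 0.05. The shares of all genes were 4.47% lower and 3.21% higher. Whether each of the 49 genes is imprinted in the cerebellum was not measured. The log2 fold change was negative for 39 of the 49 (79.6%) with a median of -0.11, against 51% of all genes, and the genotypes did not overlap for 9 of the 49 (18.4%), against 13.7% of all genes. Of the 18 neighbours tested, 13 were negative and 5 did not overlap (27.8%). Of the 23 other imprinted genes, 19 were negative and 3 did not overlap (13%). Negative values were also found for 14 of 14 meningeal fibroblast markers (median -0.14), 12 of 12 choroid plexus markers (-0.33) and 8 of 8 brainstem markers (-1.09). They were found for 2 of 8 endothelial markers (0.06), 0 of 10 cerebellum markers (0.11) and 0 of 8 granule precursor markers (0.10). A lean to negative values was thus also seen outside imprinted genes, though markers of a tissue can vary together and are not separate cases. Choroid plexus markers summed to 183 CPM in SnoN cKO 2 against 4020 and 3767 CPM in SnoN cKO 1 and 3. None of these 12 markers separated the genotypes. All lists were chosen with earlier results of these data known. Sorted by the copy usually active, 20 of 24 paternally expressed genes were negative with a median of -0.12, and 17 of 22 maternally expressed genes with a median of -0.07. The remaining 3 genes, whose active copy depends on tissue, had 2 negative values and a median of -0.09. The difference between these classes was not tested. Without SnoN cKO 3 the median over all imprinted genes was -0.10 with 38 of 49 negative. Without SnoN cKO 2 the median was -0.06 with 36 of 50 negative, and without wild type 1 it was -0.07 with 42 of 50. With SnoN cKO 1 and 2 both left out, which leaves SnoN cKO 3 as the only library of its genotype, it was -0.04 with 33 of 50 negative.

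The 4 other imprinted genes with the smallest p were Peg10, Nap1l5, Zdbf2 and Ago2. Peg10, a retrotransposon-derived gene, was at 40.8, 38.4 and 35.9 CPM in wild type against 32.7, 32.8 and 34.7 CPM in SnoN cKO, without overlap (log2 fold change -0.20, SE 0.06, adjusted p of 0.637 by edgeR). Nap1l5, of the nucleosome assembly protein family, was at 96.5, 111 and 83.2 CPM in wild type 1, 2 and 3 and at 69, 56.4 and 89.3 CPM in SnoN cKO 1, 2 and 3. Its genotypes overlapped through SnoN cKO 3, and its log2 fold change was -0.43 (SE 0.15) at an unadjusted p of 0.0155. Zdbf2 was at 45 to 53.5 CPM and 36.3 to 46.8 CPM (log2 fold change -0.23, SE 0.09). Ago2, the Argonaute gene, was at 164 to 184 CPM and 152 to 167 CPM (log2 fold change -0.13, SE 0.05). Both had an adjusted p of 0.637 by edgeR.

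**Figure D3:**
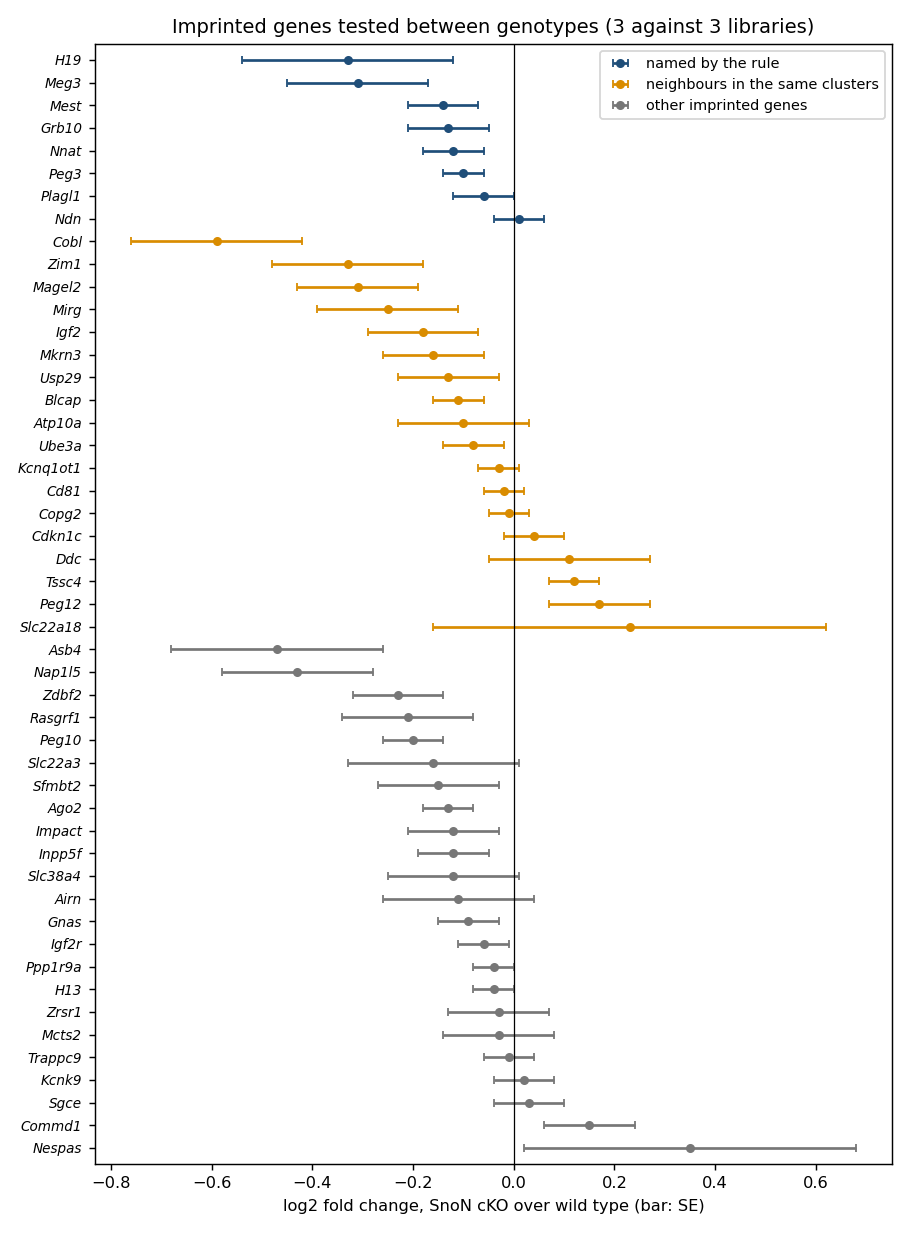
Log2 fold change of SnoN cKO over wild type with its SE for the 49 imprinted genes tested, in 3 colours for the genes named by symbol, their neighbours and other imprinted genes. Of the 49, 39 lie below 0, and none passed an adjusted p of 0.05.

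The negative values followed single libraries as well as genotype. SnoN cKO 2 was the lowest of the 6 libraries for 7 of the 8 genes (87.5%), all but H19, and for 26 of the 49 imprinted genes (53.1%), against 24.6% of all genes. Wild type 2 was the highest for 5 of the 8 (62.5%) and for 21 of the 49 (42.9%), against 17.1% of all genes. SnoN cKO 2 had the lowest and wild type 2 the highest sum of brainstem markers. The full order of the 6 brainstem sums, from wild type 2 through wild type 1, SnoN cKO 3, wild type 3 and SnoN cKO 1 to SnoN cKO 2, was repeated by Meg3 and Nnat. Mirg and Nap1l5 had it too, making 4 of 49 imprinted genes (8.16%), against 121 of 15457 genes (0.783%). These orders were compared after the values had been seen and are a description over 6 libraries. The sums of all 18 brainstem markers overlapped between genotypes, through SnoN cKO 3 and wild type 3. Of these markers 8 were tested singly, and all 8 had a negative log2 fold change, against 51% of all genes. The genotypes did not overlap for 3 of the 8 (37.5%), against 13.7% of all genes. Slc6a5, a glycine transporter gene that inhibitory neurons of the cerebellum also express, held 67.9% to 87.2% of each sum. Without it the other 17 markers summed to 25.6, 19 and 14 CPM in wild type 2, 1 and 3 and to 13.6, 10.1 and 5.08 CPM in SnoN cKO 3, 1 and 2. The genotypes then did not overlap, with wild type 3 just above SnoN cKO 3. Meg3, Nnat, Mirg and Nap1l5 do not have this order, while the highest and the lowest library stayed as they were. The granule precursor markers (Atoh1, Mki67, Gli1, Ccnd2, Mycn, Barhl1, Sfrp1 and Top2a) lay the other way, at 2917 CPM in SnoN cKO 2 and 2448 CPM in wild type 2. The part of adjoining tissue in the values of the imprinted genes was not tested.

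**Figure D4:**
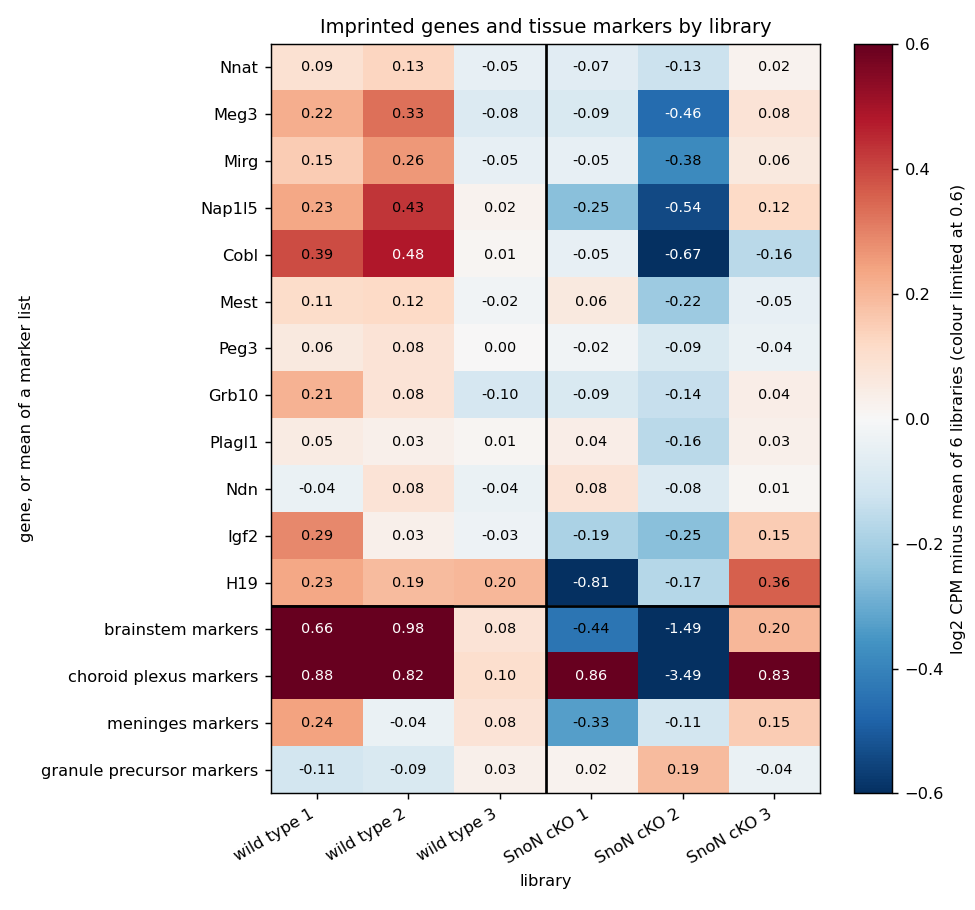
Log2 CPM of imprinted genes and mean log2 CPM of the tested genes of each marker list in each library, minus the mean of the 6 libraries. For brainstem these are 8 of the 18 markers. Colours are limited at 0.6 on either side, and each cell prints its value. Meg3 runs from 0.33 in wild type 2 to -0.46 in SnoN cKO 2 and brainstem markers from 0.98 to -1.49, while H19 has its lowest value of -0.81 in SnoN cKO 1.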

How the data were processed

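A single table deposited by the authors holds unnormalized read counts of 6 libraries. STAR 2.0.4b, featureCounts 1.4.5, Subread and mm9 are named by the submitters' processing notes; the gene annotation is not given in the sources used here. The symbols and Ensembl identifiers of the table do not belong together: of 40254 entries with an identifier in GENCODE M21, 97 carry the symbol listed beside it. The counts follow the symbols. By symbol, 90.3% of 1174 olfactory receptor genes had no count, and by identifier 36.2% of 1160. Symbols were therefore used throughout. Of 41228 entries, 660 repeats with the same symbol and counts were removed, and 26 symbols had become dates.

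Genes with low counts were removed with filterByExpr (minimum count 10), and genotype was tested with edgeR 4.0.16 in R 4.3.3, two-sided, by its quasi-likelihood test with TMM scaling, no covariates and Benjamini-Hochberg adjustment over 15457 genes at 0.05. DESeq2 1.42.0 and limma 3.58.1 were alternatives, with other scalings, no filter, sex or replicate number as a term, repeats kept and each library left out. The fit was tested on simulated data. The common biological coefficient of variation was 9.71%. An exact permutation of 3 against 3 cannot give p under 0.1 and was not used. Every pair of libraries differed beyond sampling noise (lowest chi-square per degree of freedom 2.67). Intervals for 0 counts use a floor of 3 counts and cover counting error only.

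The genes followed and all lists were chosen with earlier results of these data known. Named genes were the 10 genes, Skil, their cluster neighbours, the 4 other imprinted genes with the smallest p, the 3 genes most like any gene spanning more than 1 on the log2 scale (mean CPM at least 1), and markers. The cluster neighbours Snurf, Ipw and Zfp264 and the imprinted gene Peg13 are not analysed here.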

Additional observations from a re-analysis of the deposited data

How the results depend on the processing

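None of the 8 genes passed under any of the 16 alternatives, and 138 of 144 alternative values for these genes and Skil kept their sign. Ndn turned to -0.01 with library totals without TMM, without wild type 1 and without wild type 3, and to -0.03 without SnoN cKO 1. Plagl1 ran from -0.09 to 0.00 with single libraries left out, reaching 0.00 without SnoN cKO 2. With neither SnoN cKO 1 nor SnoN cKO 2, a choice made after seeing the data, H19 was 0.15. The cause was not tested. Over all genes the count called was 39 with no low-count filter (31 lower, 1865 at an unadjusted p under 0.05), 6 with DESeq2 (668), 1 with the labelled sex as a covariate, and 7 with SnoN cKO 1 and 2 both left out (729), where SnoN cKO 3 is the only library of its genotype and is assumed to vary like wild type. It was 0 with each single library left out, for all genes, the 8 genes and the other imprinted genes. With no filter 1 imprinted gene was called, Nap1l5 (adjusted p of 0.0313 by edgeR); under the other alternatives no imprinted gene had an adjusted p below 0.336. Limma-voom called 0, with 1207 at an unadjusted p under 0.05. Library totals without TMM shifted the median of all genes to -0.02 and made all 8 genes negative. Sex by Xist and Y-linked counts as a covariate, also added after seeing the data, called 0 genes. The replicate numbers did not pair the libraries: correlations of same-numbered libraries were -0.04, -0.32 and -0.18, and the replicate block called 0 genes, with 786 at an unadjusted p under 0.05.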

Other observations

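The ratio of Peg12 to Magel2 counts, paternally expressed neighbours in the Snrpn-Ndn cluster, took values of 1.25, 1.14 and 1.31 over the wild type libraries. Over SnoN cKO 1, 2 and 3 the ratio was 1.8, 1.79 and 1.59, with no overlap. This ratio was chosen after both values had been seen, so it carries no test. Snhg14, the host transcript of small nucleolar RNAs in that cluster, also named after its values were seen, was at 206, 197 and 197 CPM in wild type against 195, 177 and 199 CPM in SnoN cKO (log2 fold change -0.07, SE 0.05). The ankyrin repeat gene Asb4, chosen in the same way, had all 3 SnoN cKO libraries (1.8, 1.49 and 2.11 CPM) below all 3 wild type libraries (2.5, 2.32 and 2.73 CPM), with a log2 fold change of -0.47 (SE 0.21) and an adjusted p of 0.654 by edgeR. Nespas, the antisense RNA of the Gnas cluster, was at 0.783 to 1.58 CPM in SnoN cKO and 0.857 to 1.13 CPM in wild type, with overlap and with SnoN cKO 1 lowest of all (log2 fold change 0.35, SE 0.33). Without strand its reads are uncertain, since 38.5% of its exon bases overlap Gnas and other genes.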
